A study of Drosophila melanogaster with 2 samples.

Results

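The 10 genes described here encode Drosophila melanogaster proteins that organise chromatin or bind gene promoters, and the question is where the transcription factor Atf-2 was bound along these genes in whole embryos. They are Chro and pzg, whose products occupy the interbands of polytene chromosomes, the insulator protein genes BEAF-32, CTCF, su(Hw), Cp190 and mod(mdg4), and the promoter-binding factor genes Trl, Dref and M1BP. They are 10 of 13945 protein-coding genes on the 6 chromosome arms analysed. All 10 genes were chosen with earlier results of these data known. The set was picked because Chro carried 1 of the 5 strongest Atf-2 peaks, and the other genes were added for what their products do. The peak signal of Chro is therefore a description here and supports nothing. The fly line stably expressed Atf-2 with GFP at its C-terminus, and the promoter driving the fusion is not given in the sources used here. Embryos of both sexes, aged 0 to 24 h, were collected, and sonicated chromatin was immunoprecipitated with an antibody to GFP and sequenced. There was 1 group with 2 samples, biological replicates 2 and 3, and an untagged line or an input library was not analysed here. The embryos were a mixture of stages and cell types, so a peak cannot be assigned to a cell type.

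The deposited lists give each bound region as an interval, a summit (the base of highest enrichment) and a signal value, in the coordinates of the dm6 build. The IDR list, named for the irreproducible discovery rate, held 3265 peaks with signal values between 84.6 and 1965 and a median of 132. That rate compares the ranks of regions in replicates. The list from pooled replicates and the list of each replicate held 30000 regions each, so they reach into background and presence in them is not a call. Rank 1 is the strongest region of a list. Every IDR peak was found among the top 3265 pooled regions with an identical summit and signal, so their values are those of the pooled data. The list was thus a cut of the pooled list by signal, and 3254 of its peaks had a region in both replicates. A place in it does not show that a peak ranked alike in both. No read totals came with the lists, so the depth is unknown and no counting interval can be given.

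Chro (Chromator) and pzg (putzig) belong to protein assemblies found at decondensed interbands, which hold the promoters of broadly expressed genes. Insulator proteins such as BEAF-32, CTCF and su(Hw) bind DNA directly, and Cp190 and mod(mdg4) are cofactors they recruit, and together they mark many borders between chromatin domains. Trl encodes GAGA factor, which opens chromatin at GAGAG repeats, Dref encodes the factor that binds the DNA replication-related element, and M1BP encodes a factor that binds the core promoter element called Motif 1. Atf-2 is a leucine-zipper factor of the ATF/CREB family, whose members bind the cAMP response element, and it is a target of the p38 stress kinase in the fly.

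The peaks at 5 of these genes lay in or beside the DNA between divergent starts, that is, between 2 transcription start sites that face away from each other, and these stretches are shown for that reason. All sequences are the plus strand of the dm6 (Release 6) reference genome, taken from RefSeq, 5′ to 3′. Capitals mark matches to the motifs CGATA (the BEAF-32 half-site, either strand), TATCGATA and ATCGATAG (the Dref element and its flanked core) and TGACGTAA (a variant of the cAMP response element). The first is chr3L:22878985-22879088, between the outermost start of Chro and that of Ssl1, with 104 bases and no match.
Chro to Ssl1: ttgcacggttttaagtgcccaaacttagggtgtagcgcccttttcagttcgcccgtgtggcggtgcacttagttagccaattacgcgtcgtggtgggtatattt
The next 30 bases, chr3L:22878880-22878909, lie inside the Chro transcript and hold the summit of its peak, at 22878883. They were cut around a CGATA near that summit, so the match in them was fixed by the cut.
Chro summit: tgtattgcctgtCGATAgctttaaactaac
The stretch between pzg and CG12974 is chr3L:21285963-21286098, with 136 bases and no match. Beside it, chr3L:21285908-21285937 was likewise cut around a half-site, on the minus strand, and holds the summit at 21285933.
pzg to CG12974: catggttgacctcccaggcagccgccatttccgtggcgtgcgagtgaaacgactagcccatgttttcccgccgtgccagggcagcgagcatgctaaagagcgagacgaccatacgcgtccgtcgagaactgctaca
pzg summit: aaataattacgtTATCGtaatgaacggcaa
The stretch between Cp190 and CG4338 is chr3R:15275242-15275521, with 280 bases, and it holds 1 of the rare TGACGTAA matches.
Cp190 to CG4338: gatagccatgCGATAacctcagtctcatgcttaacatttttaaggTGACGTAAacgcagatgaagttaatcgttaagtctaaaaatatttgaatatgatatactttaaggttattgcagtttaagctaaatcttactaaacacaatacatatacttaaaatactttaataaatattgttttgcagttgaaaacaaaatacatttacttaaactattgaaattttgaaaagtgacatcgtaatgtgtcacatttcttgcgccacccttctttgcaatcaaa
Across the start of Cp190 itself, chr3R:15275227-15275256 holds the whole Dref element TATCGATA within a longer palindrome.
Cp190 start: cgctcggcagCTATCGATAGccatgCGATA
The stretch between Dref and RpL13 is chr2L:9967230-9967312, with 83 bases.
Dref to RpL13: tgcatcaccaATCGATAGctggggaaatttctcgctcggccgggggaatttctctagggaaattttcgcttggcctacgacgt
The summit of the peak inside mod(mdg4) lies within chr3R:21365489-21365608, a stretch narrower than the peak. It has 120 bases between the divergent starts of pre-mod(mdg4)-E and pre-mod(mdg4)-X, with no match.
mod(mdg4), between pre-mod units: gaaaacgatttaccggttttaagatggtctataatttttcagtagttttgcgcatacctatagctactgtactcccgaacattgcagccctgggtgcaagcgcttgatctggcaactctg
The strongest peak of Trl was intronic, and its summit with 100 bp on each side, chr3L:14759407-14759607, held none of the motifs searched.
Trl intron: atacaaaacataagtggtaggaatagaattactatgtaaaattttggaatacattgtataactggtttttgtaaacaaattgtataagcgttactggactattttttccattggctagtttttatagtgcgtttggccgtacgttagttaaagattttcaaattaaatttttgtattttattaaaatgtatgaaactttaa

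Atf-2 peaks lay at the promoters of 6 of the 10 genes, with an IDR summit within 500 bp of an annotated start: Chro, pzg, BEAF-32, Cp190, Trl and Dref. Of all protein-coding genes, 2081, or 14.9%, had such a peak. Within the span of a gene and 5000 bp on each side, 8 of the 10 genes held an IDR summit, adding CTCF and mod(mdg4), against 5467 of all protein-coding genes, or 39.2%. Only su(Hw) and M1BP had none by that rule. The windows of the 10 genes held 13 IDR peaks in 168 kb, or 0.772 per 10 kb, against 0.364 per 10 kb over the windows of all protein-coding genes, where a peak shared by several windows counts in each. Of the 13 peaks, 8 were promoter peaks. By position, 4 summits lay in a 5′ UTR, 4 in an intron, 3 between genes, 1 in a coding exon and 1 in a noncoding exon. The 5′ UTR at pzg was that of the neighbour CG12974. The split of all IDR peaks by position was not counted, so these counts are only a description. The median signal of the strongest promoter peak was 218 in the 6 genes that had one and 139.5 in all genes that had one. These are counts in a set chosen partly by its strongest member and with earlier results known. There was no test of the set against other genes.

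**Figure D1:**
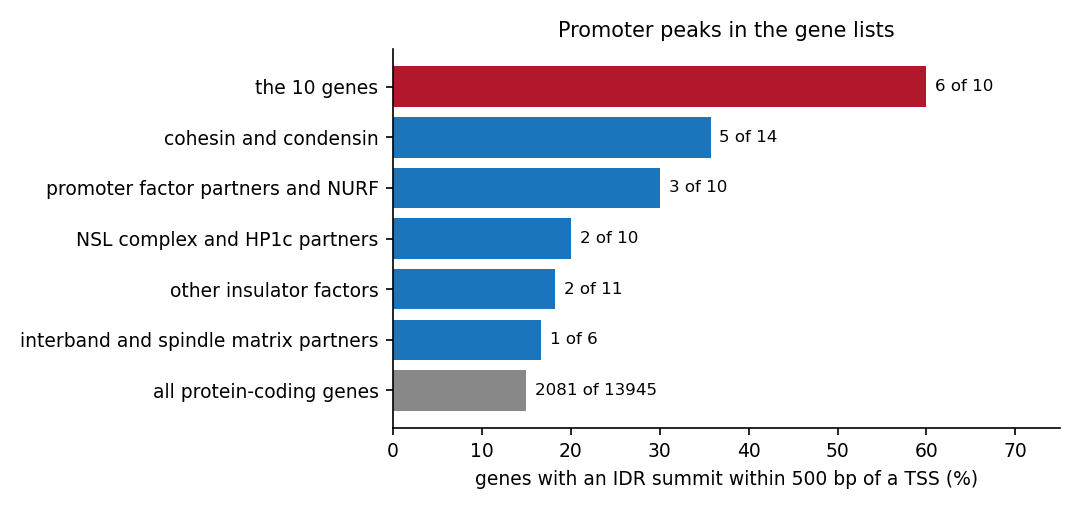
Percentage of genes with an Atf-2 IDR summit within 500 bp of a start, for the 10 genes, the lists of related chromatin factors and all protein-coding genes. The 10 genes stand at 6 of 10 and all protein-coding genes at 14.9%.

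**Figure D2:**
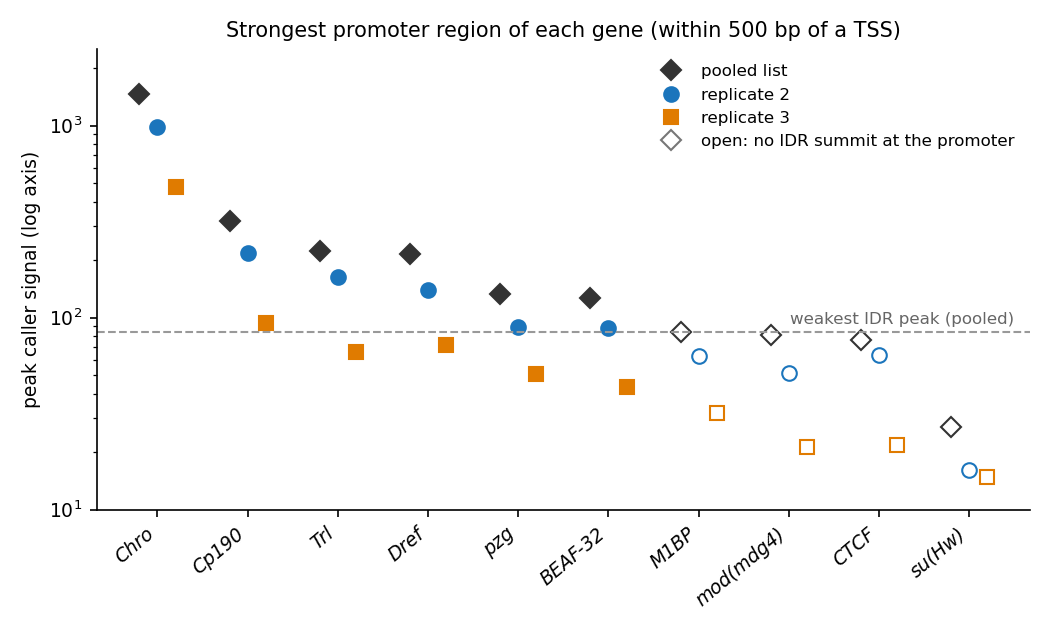
Signal (deposited units, log axis) of the strongest region within 500 bp of a start of each of the 10 genes, in the pooled list and in each replicate list, with open points where no IDR summit lay at the promoter and a dashed line at the weakest IDR peak. Chro stands highest at 1463 in the pooled list and su(Hw) lowest at 27.0.

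The interband genes Chro and pzg both had a single IDR peak, and both peaks lay at a start shared with a divergent neighbour. Chro (FBgn0044324, minus strand, chr3L:22873702-22878984) encodes a chromodomain protein that is also part of the spindle matrix. Its peak, chr3L:22878678-22879132, had a pooled signal of 1463, with 983 in replicate 2 and 482 in replicate 3. It ranked 5 in all 3 lists, so its place in the order did not differ between the replicates. The summit at 22878883 lay in the Chro 5′ UTR, 101 bp downstream of the outermost start and 206 bp from the start of Ssl1, which encodes a subunit of the repair and transcription factor TFIIH. The next strongest pooled region in the Chro window had a signal of 54.4 and rank 6309, so no other region there reached the IDR list. pzg (FBgn0259785, plus strand, chr3L:21286099-21290310) encodes a zinc-finger protein that acts with Dref and with the NURF nucleosome remodeller. Its peak, chr3L:21285715-21286150, had a pooled signal of 133, with 89.6 in replicate 2 and 50.7 in replicate 3, at ranks 1595, 1575 and 1444. This is close to the median IDR peak. Its summit lay 166 bp upstream of pzg and 29 bp from the start of CG12974, inside the 5′ UTR of that neighbour, so position does not tell which of the 2 genes the peak belongs to.

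Of the 5 insulator protein genes, BEAF-32 and Cp190 had promoter peaks, mod(mdg4) had a strong internal peak, CTCF had a peak only at a neighbouring gene and su(Hw) had none. BEAF-32 (FBgn0015602, chr2R:14770469-14772630, plus strand) encodes the boundary element-associated factor that binds CGATA clusters. It had 2 promoter peaks, with summits 856 bp apart. The peak at 14771254, 47 bp upstream of an internal start, had a pooled signal of 127, with 87.6 in replicate 2 and 43.7 in replicate 3. The peak at 14770398, 71 bp upstream of the outermost start, had a pooled signal of 122, with 88.4 in replicate 2 and 34.8 in replicate 3. The 2 peaks were thus nearly equal in the pooled list, and both were ambiguous with the antisense gene asRNA:CR42254. The internal summit lay 41 bp from the start of that gene, nearer than the start of BEAF-32, and the outer summit lay in one of its exons. Of all protein-coding genes, 200, or 1.43%, had 2 or more promoter summits, BEAF-32 and Cp190 among them. BEAF-32 has 3 annotated starts and Cp190 has 2, and the share was not counted by number of starts.

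Cp190 (FBgn0000283, chr3R:15270432-15275241, minus strand) encodes a BTB zinc-finger cofactor shared by several insulator complexes. Its stronger peak, chr3R:15275203-15275430, had a pooled signal of 318, with 218 in replicate 2 and 93.3 in replicate 3, at ranks 294, 279 and 417. Its summit at 15275315 lay 74 bp upstream of the start of Cp190. A second summit 200 bp away, at 15275515, had a pooled signal of 195, with 96.5 in replicate 2 and 44.6 in replicate 3, and lay 7 bp from the start of CG4338. The intervals of the 2 peaks overlapped, and whether they are separate sites was not tested.

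mod(mdg4) (FBgn0002781, chr3R:21350846-21377401, minus strand) encodes a large family of BTB proteins whose messenger RNAs are joined from separate transcripts by trans-splicing. Its IDR peak, chr3R:21365381-21365629, had a pooled signal of 352, with 223 in replicate 2 and 125 in replicate 3, at ranks 235, 260 and 201. It was the strongest peak among the insulator genes, and it lay in an intron 11902 bp from the annotated start of mod(mdg4). The annotation lists 23 separate pre-mod(mdg4) units that supply the alternative 3′ exons, and 10 of them had this summit within 500 bp of their starts. The nearest was pre-mod(mdg4)-E at 11 bp, 7 units on the opposite strand started 110 bp away, and 2 more started 209 bp away. Of the other 13 units, 3 had any region of the pooled list at their starts, the best at rank 28918 with a signal of 23.9. At the start of mod(mdg4) itself the pooled region had a signal of 81.0 and rank 3477, just short of the IDR peaks, with 51.6 in replicate 2 and 21.2 in replicate 3.

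CTCF (FBgn0035769, chr3L:7353578-7356713, minus strand) encodes the fly form of the zinc-finger insulator protein known from vertebrates. The single IDR peak in its window, with a summit at 7360003, lay 3290 bp upstream of CTCF in a coding exon of pst and 113 bp from the start of pst. That peak had a pooled signal of 94.0, with 59.9 in replicate 2 and 36.7 in replicate 3. A stronger region of replicate 3, with 51.7 at rank 1391 and its summit at 7359837, also overlapped it. At the promoter of CTCF the pooled region had a signal of 76.7 and rank 3772, below the weakest IDR peak, with 63.5 in replicate 2 and 21.6 in replicate 3. su(Hw) (FBgn0003567, chr3R:14304455-14308589, minus strand) encodes the zinc-finger protein of the gypsy insulator. Its promoter had the weakest values of the 10 genes, with a pooled signal of 27.0 at rank 23461, 16.0 in replicate 2 and 14.8 in replicate 3, where the region of replicate 2 lay on the other side of the start. A region at such ranks is not a call.

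Of the 3 promoter-binding factor genes, Trl and Dref had IDR promoter peaks and M1BP missed by 6 ranks. Trl (FBgn0013263, chr3L:14747929-14761049, minus strand) spans 13.1 kb without flanks, longer than the median window of all protein-coding genes, 12.2 kb with flanks. A longer window has more room for summits. Trl had 4 IDR summits spread over 4238 bp, and 230 protein-coding genes, 1.65%, had 4 or more in their windows. The strongest, at 14759507 in an intron and 1542 bp from the nearest start, had a pooled signal of 770, with 488 in replicate 2 and 282 in replicate 3. It ranked 39, 41 and 29 in the 3 lists and was the second strongest peak of the 10 genes, after that of Chro. The only promoter peak of Trl, at 14757135 in its 5′ UTR and 201 bp downstream of an internal start, had a pooled signal of 222, with 163 in replicate 2 and 66.4 in replicate 3. Another peak, in an intron at 14756184, had a pooled signal of 172, with 117 in replicate 2 and 60.8 in replicate 3. The last, at 14760422 in an intron and 627 bp from the outermost start, had a pooled signal of 111, with 74.0 in replicate 2 and 42.4 in replicate 3. Of the 4 Trl peaks, 3 thus lay in introns, as did the peak of mod(mdg4). Part of the Trl locus is also covered by the overlapping gene CG42507.

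Dref (FBgn0015664, chr2L:9964147-9967229, minus strand) encodes a zinc-finger factor of genes for replication and growth. Its peak, chr2L:9967059-9967494, had a pooled signal of 214, with 138 in replicate 2 and 71.9 in replicate 3, at ranks 668, 709 and 718. The summit at 9967277 lay between genes, 48 bp upstream of Dref and 36 bp from the start of RpL13, a ribosomal protein gene on the opposite strand. M1BP (FBgn0037621, chr3R:8729790-8731698, minus strand) had no IDR peak. Its pooled region had a signal of 84.5 at rank 3271, which is 6 ranks past the last IDR peak, and the overlapping regions with the nearest summits had 63.2 in replicate 2 and 14.1 in replicate 3, at ranks 2733 and 20724. A stronger region of replicate 3, with 31.8 at rank 3436, had its summit at 8731843, nearer to M1BP, at 145 bp upstream. The pooled summit, at 8732059, lay 361 bp upstream of M1BP and 32 bp from the start of CG8202, so M1BP lay at the limit of the IDR list.

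**Figure D3:**
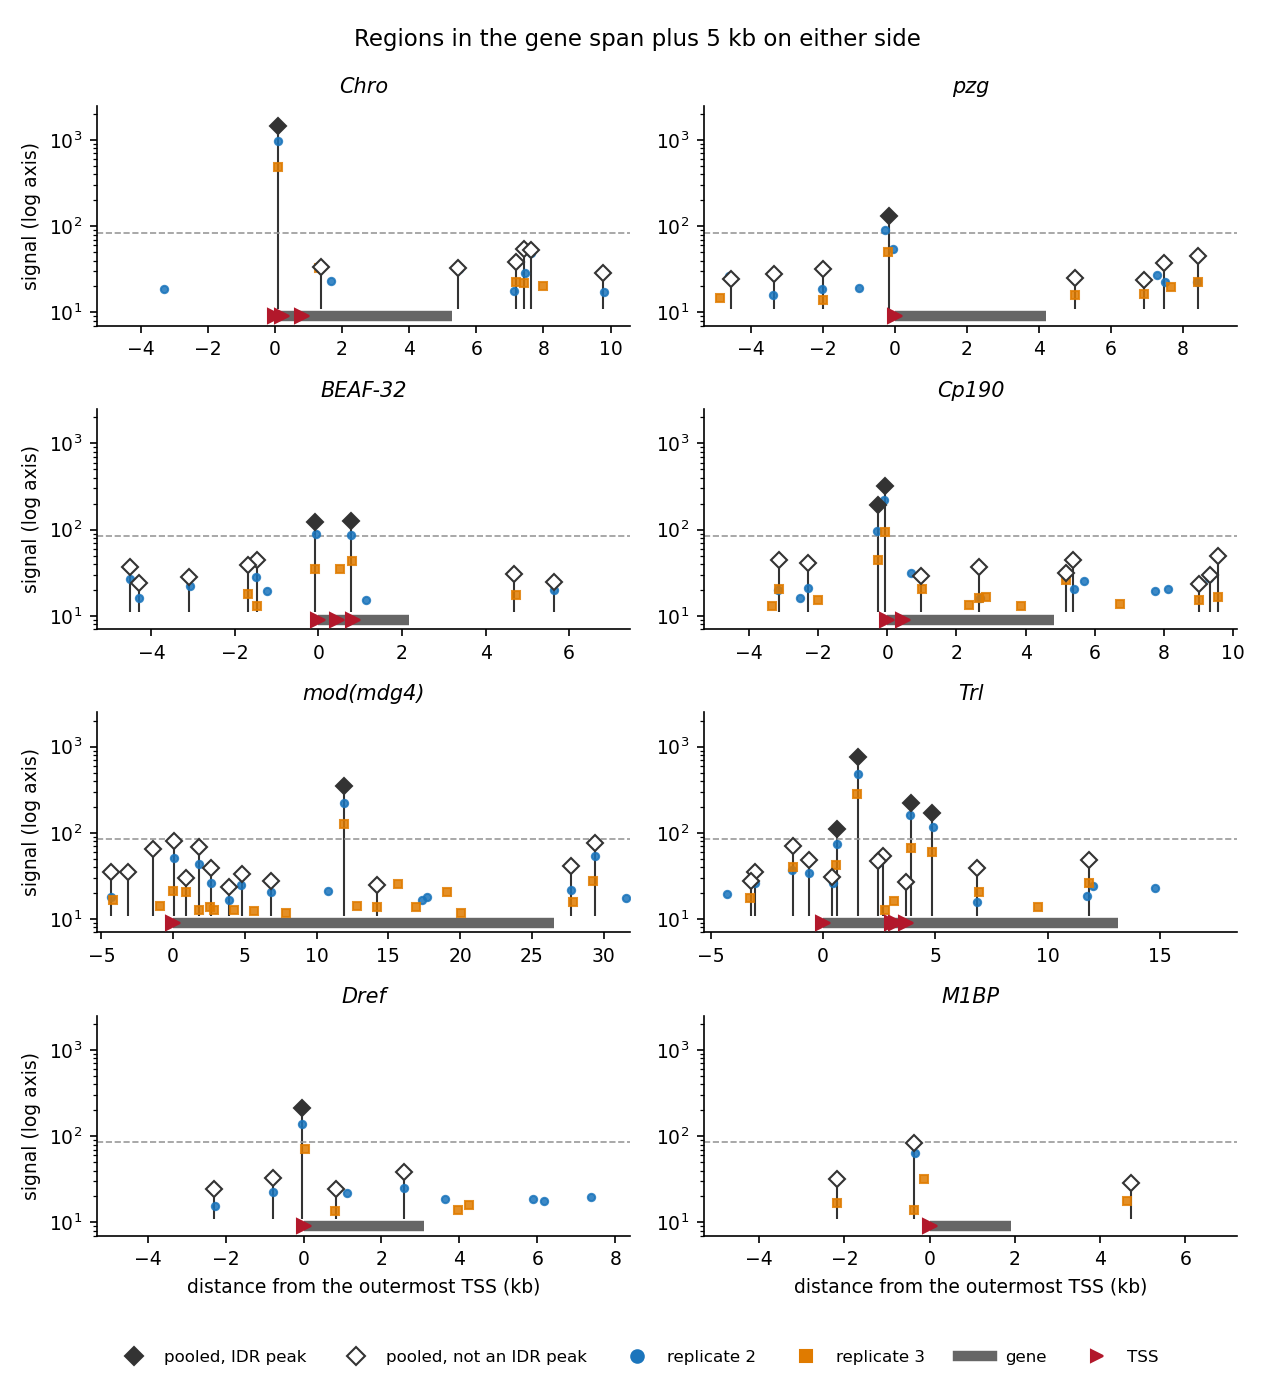
Signal (deposited units) of bound regions against distance from the outermost start in kb and a log signal axis, for 8 of the genes; filled diamonds are IDR peaks, open diamonds other pooled regions, smaller points the replicates, grey bars the genes and the dashed line the weakest IDR peak. Chro has 1 dominant peak of 1463, Trl has 4 IDR peaks, 3 of them in introns, and mod(mdg4) has its peak of 352 far from its start.

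Of the 8 promoter summits, 5 also lay within 500 bp of a start of a neighbouring protein-coding gene, at Chro, pzg, Cp190 (both summits) and Dref. Among the 1616 IDR peaks that are promoter peaks of any protein-coding gene, 637, or 39.4%, were shared by 2 or more genes. Counted by gene, 4 of the 6 genes with a promoter peak shared one, and 58.3% of all protein-coding genes with a promoter peak shared their strongest, so the 6 genes lay near that share.

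The 2 replicates gave the same order for the 4 strongest peaks, at Chro, the Trl intron, mod(mdg4) and Cp190, and differed in scale. All 13 peaks overlapped 1 of the 3265 strongest regions in both replicates. The IDR list was made from both replicates, so this overlap was largely fixed in advance and is no support. The share over all IDR peaks was not counted. The signal in replicate 2 over that in replicate 3 lay between 1.63, at the peak in the CTCF window, and 2.54, at the outer peak of BEAF-32, with a median of 1.93. Over the 3254 IDR peaks with a region in both replicates the median was 1.94 and the 10th to 90th percentile 1.23 to 3.10. By the region with the nearest summit, the ratios of all 13 lay inside that range. At the peak in the CTCF window a stronger overlapping region of replicate 3, with 51.7, would place the ratio below it. The lists are not scaled to each other, so a higher value in replicate 2 is not more binding. The summits in the 2 replicates lay 4 to 76 bp apart, with a median of 24 bp, against a median of 27 bp over all IDR peaks. Taking the 3265 strongest regions of each replicate alone, replicate 2 placed promoter peaks at 8 of the 10 genes, adding CTCF and M1BP, against 15.0% of protein-coding genes. Replicate 3 placed them at the same 6 genes as the IDR list, against 14.1% of protein-coding genes. CTCF and M1BP are thus the genes that passed this cutoff in 1 replicate only. Ranks also differed at genes that passed in neither. mod(mdg4) ranked 3626 in replicate 2 and 8239 in replicate 3, and su(Hw), by different regions, 27923 and 18674. CTCF ranked 2715 in replicate 2 and 7882 in replicate 3. The strongest promoter region of M1BP ranked 2733 in replicate 2 and 3436 in replicate 3, but these were different regions, and the replicate 3 region at the site of replicate 2 ranked 20724. With 2 samples of 1 group there is no test between groups.

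**Figure D4:**
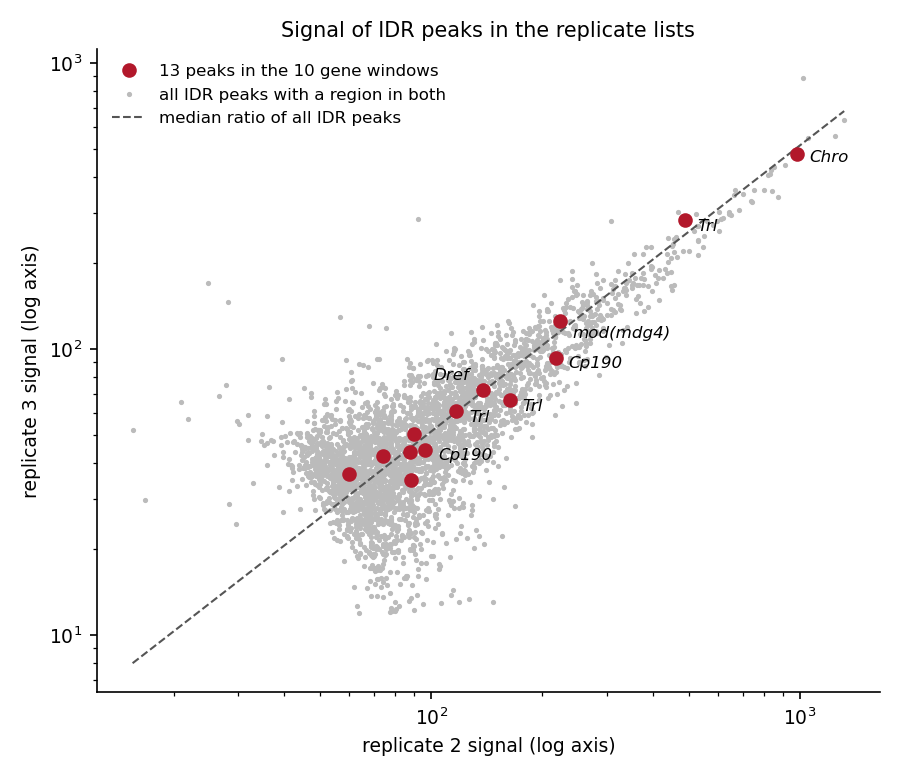
Signal in replicate 2 against signal in replicate 3 (deposited units, log axes) for all IDR peaks with a region in both (grey) and the 13 peaks of the 10 genes (red), with a dashed line at the median ratio. The 13 lie within the cloud of the other peaks, at ratios between 1.63 and 2.54, with Chro at the upper end.

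Motifs were counted in the 13 windows of 100 bp on each side of a summit, on both strands, beside all 3265 IDR windows and 19252 windows of the same length at protein-coding starts. TGACGTAA, ATCGATAG, CACTGAGA, TACACTGA, CAACACTG and TTACGTAA were added to the search with earlier results of these data known. The full cAMP response element TGACGTCA was in none of the 13, in 0.490% of IDR windows and in 0.275% of start windows. The AP-1 element TGANTCA was in none of the 13 and in 5.02% of IDR windows, against 3.79% of start windows. TGACGTAA was in 1 window, at Cp190, 24 bp from the summit, and in 0.184% of IDR windows, against 0.260% of start windows. CACAGTGG was in none of the 13, in 5.05% of IDR windows and in 0.826% of start windows. CACGTG was in 1, at the peak in the CTCF window, against 2.24% and 2.80%. CACTGAGA and TACACTGA were in none, against 4.10% and 3.49% of IDR windows and 0.649% and 0.473% of start windows. CAACACTG was in 1, at BEAF-32, against 3.31% and 2.58%. TTACGTAA was in none, against 0.490% and 0.249%.

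Motifs of the proteins that these genes encode were present in some windows. CGATA was in 5 of the 13 windows, at Chro, pzg, the internal BEAF-32 peak, the stronger Cp190 peak and Dref, against 29.6% of IDR windows and 37.1% of start windows. The Dref element TATCGATA, which contains a CGATA on each strand, was in the Cp190 window only, 73 bp from the summit, against 3.74% of IDR windows and 6.45% of start windows. ATCGATAG, which overlaps it and also contains CGATA, was in the windows of Cp190 and of Dref itself, against 3.74% of IDR windows and 6.04% of start windows. GAGAG, the element of GAGA factor, was in none of the 13, against 22.8% of IDR windows and 25.0% of start windows, and with 250 bp on each side it was in 6 of the 13, including all 4 peaks of Trl, against 53.4% of IDR windows. Motif 1, GGTCACACT, was in none of the 13 and in 1.32% of IDR windows, against 4.42% of start windows. A match is a description of letters and not a bound site, and the counts moved with the length of the window. With 250 bp on each side TGACGTAA was in 3 of the 13 windows, against 0.796% of IDR windows. These were the window at pst and both windows of Cp190, which overlap and hold the same match. TGANTCA was in 1 of the 13, against 11.5%. At that length TATCGATA was in 2 of the 13, against 6.98%, and CGATA in 8, against 52.2%. The windows differed in base composition: the strongest Trl window had 25.4% G and C, the window at pst 49.3%, and all IDR windows 37.0% ± 6.41 (SD, n = 3265).

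A wider list of 51 genes for related chromatin factors gave 13 genes with a promoter peak, or 25.5%, and 31 with a summit in their window, or 60.8%, beside the 14.9% and 39.2% of all protein-coding genes. By role, promoter peaks were at 5 of 14 cohesin and condensin genes, 3 of 10 partners of the promoter factors including NURF subunits, 2 of 10 genes of the NSL and HP1c complexes, 2 of 11 other insulator factors and 1 of 6 further interband and spindle matrix genes. The strongest was pds5, which encodes a regulator of cohesin, with a pooled signal of 347, 245 in replicate 2 and 102 in replicate 3. row, whose product acts in the HP1c complex, had 225, with 148 in replicate 2 and 82.2 in replicate 3. Of the condensin genes, SMC2 had 211, with 149 in replicate 2 and 66.9 in replicate 3, and Cap-D2 had 174, with 117 in replicate 2 and 58.0 in replicate 3. lolal, which encodes a BTB partner of GAGA factor, had 178, with 141 in replicate 2 and 42.2 in replicate 3. E(bx), the largest subunit of NURF, had 132, with 81.9 in replicate 2 and 52.1 in replicate 3, close to the value at pzg. barr, another condensin gene, had 157, with 102 in replicate 2 and 51.9 in replicate 3, and Cap-H2 had 147, with 102 in replicate 2 and 43.8 in replicate 3. psq, a BTB factor that also binds GAGAG, had 129, with 84.3 in replicate 2 and 44.0 in replicate 3. shep, an insulator regulator that binds RNA, had 118, with 85.3 in replicate 2 and 34.8 in replicate 3, and like row it had 2 promoter summits. The strongest of these 13 genes, pds5, thus lay near mod(mdg4) and Cp190 in signal and well below Chro and the Trl intron.

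Among all IDR peaks Chro stood beside px, just above it at rank 4 with 1596, and Ugalt, just below the rank that chose it, at rank 6 with 1351. By the distance between log2 signals over the 2 replicate lists, the promoter peaks most like that of Chro were those of Ugalt at 0.17, px at 0.21, and Art3 and mRpS10, which share 1 peak, at 0.30. Ugalt had 911 in replicate 2 and 440 in replicate 3, and px had 1052 in replicate 2 and 550 in replicate 3, against 983 in replicate 2 and 482 in replicate 3 for Chro.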

How the data were processed

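Anti-GFP ChIP-seq of whole embryos gave 2 biological replicates in 1 group. The signal values and summits were deposited by the authors as an IDR list, a pooled list and 1 list per replicate, per the deposited readme texts, on dm6. The sources used here do not name the aligner, the caller or the cutoff of the IDR step. Lists on the older build dm3 were not used. From these lists, summits were set against starts and spans of 13945 protein-coding genes of the Ensembl release 115 annotation (Release 6, 6 chromosome arms). Promoter peaks were those whose summit was at most 500 bp from any start, and a gene window was the span with 5000 bp on each side. At an IDR peak, a replicate's value is that of the overlapping region with the nearest summit, and at a promoter without one it is the strongest region within 500 bp of a start in each list, unless stated. The rule for named genes took every one of the 10 genes, the 10 strongest promoter peaks of the wider list and the 4 genes most like Chro. Members, lists and rules were chosen with earlier results of these data known. Motifs were matched exactly on both strands. Python 3.11.15, numpy 2.4.6 and pandas 2.3.3 were used, and the counting was tested on simulated peaks. Depth is unknown, and the number of replicates limits the precision. Alternatives changed distances, thresholds, overlaps and replicates.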

Additional observations from a re-analysis of the deposited data

How the results depend on the processing

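Of 28 alternative counts, 24 lay within 1.5 times the value reported. The rank of Chro, by which the set was chosen, was counted among them. With no flank around the gene span, 4 of the 10 genes held an IDR summit (against 9.39% of protein-coding genes) and the windows held 7 peaks. With 10000 bp on each side, 8 of the 10 held one, against 52.8% of protein-coding genes, and the windows held 21 peaks. Each longer window contains the shorter one, so these counts cannot fall as the flank grows. With only the 1632 strongest IDR peaks, 8 genes of the wider list had a promoter peak, and the share of all protein-coding genes was 8.28%. From 1 replicate alone, promoter peaks lay at 6 to 8 of the 10 genes, against 14.1% to 15.0% of protein-coding genes. Summits in windows lay at 8 to 9 of the 10 genes, and peaks in windows numbered 16 to 17. The share of all genes for these windows was not counted. Wider-list genes with a promoter peak numbered 14. Chro kept rank 5, which is a description because its rank chose the set. Counting only the outermost start gave promoter peaks at 5 of the 10 genes, and the share of all genes by that rule was not counted. No paired analysis was possible because there was 1 group only. Presence in a list of 30000 regions is not a call, values are not scaled between lists, and depth is unknown. An untagged or input library was not analysed here.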
